A study of Rattus norvegicus with 6 samples.

Results

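Mast cell genes were examined in synovial tissue from the hind ankle joints of male rats with adjuvant arthritis, treated with saline or with triptolide. The 10 genes, Cpa3, Tpsab1, Tpsb2, Mcpt1, Mcpt2, Cma1, Kit, Ms4a2, Fcer1a and Hdc, were taken by name as a set of mast cell proteases, receptors and the histamine-forming enzyme, with earlier results of these data known. They are 10 of the 35071 names that the array gives its features, and had 13 probes among the 41012 on the array. The test covered the 25778 probes that were well above background in 3 or more samples, among them 11 probes of 9 of these genes. All rats were 8 weeks old and carried arthritis induced by 0.1 ml of Freund's complete adjuvant, given intraperitoneally each day over 18 days. The arthritis group (3 samples) then received saline and the triptolide group (3 samples) 0.4 mg/kg of triptolide, once daily over 14 days. Triptolide is a diterpenoid of the vine Tripterygium wilfordii that blocks transcription by binding a helicase of the general transcription machinery. The labels give no strain and do not say whether the replicates were separate animals, so the p-values measure only the spread between these samples, which may be technical. No healthy joint was analysed here.

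Mast cells are resident immune cells of connective tissue and mucosa that store histamine, heparin-bound proteases and cytokines in cytoplasmic granules. Allergen that cross-links IgE on the high-affinity IgE receptor empties these granules, and the receptor tyrosine kinase Kit, bound by stem cell factor, keeps the cells alive. In joints they lie in the synovial sublining near vessels, and they are known to be abundant in inflamed synovium.

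Detection was similar across the arrays, with 59.6% to 65.1% of 43379 non-control spots well above background and 0 saturated spots. Over the tested probes, arthritis 2 correlated at 0.925 with arthritis 1 and 0.926 with arthritis 3, which correlated at 0.991 with each other. Per the file headers, slide 1 held the 3 arthritis arrays and triptolide 1, and slide 2 held triptolide 2 and 3. The tissue makeup was uneven: the mean centred log2 level of skeletal muscle markers was 8.28 in arthritis 2 and between -3.86 and 1.83 on the other 5 arrays. Nerve markers stood at 2.19 and smooth muscle markers at 1.85 in triptolide 2, the highest value of each list. All 12 synovial fibroblast markers were tested and well above background on all 6 arrays. Every log2 level below is relative to the array's own 75th percentile, which is 0, and every log2 difference is triptolide minus arthritis.

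Of the 9 tested mast cell genes, each by its brightest probe, 8 had lower values with triptolide and 1, Kit, a higher one, but none passed limma's test. Among the 8, Tpsab1 differed by only -0.0043, and the other 7 varied together over the arrays, so they are not independent observations. The median log2 difference was -0.24, against 0.023 for all tested probes, of which 46.2% lay below 0. With normexp background correction 7 of the 9 genes were lower, and 57.4% of all tested probes lay below 0. The adjusted p was 0.994 for every tested member probe other than Tpsab1 (0.999), and limma called 0% of the tested probes at an adjusted p of 0.05, with 0.344 as the smallest value. An unadjusted p under 0.05 was reached by 1 of 11 member probes, for Kit, and by 3.23% of all tested probes. That Kit probe was also the 1 member probe whose groups did not overlap, against 8.64% of all tested probes in either direction and 4.77% with triptolide higher. In bulk tissue, fewer mast cells and less RNA per mast cell cannot be told apart. The lower values depended on the weight given to each array. When limma estimated array weights (highest for triptolide 3, then 2.80 for arthritis 1, and lowest at 0.20 for arthritis 2 and 0.24 for triptolide 2), 8 of the 9 genes were higher and the median was 0.18. Within slide 1, where triptolide 1 is the only treated array, the median was -0.66.

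**Figure D1:**
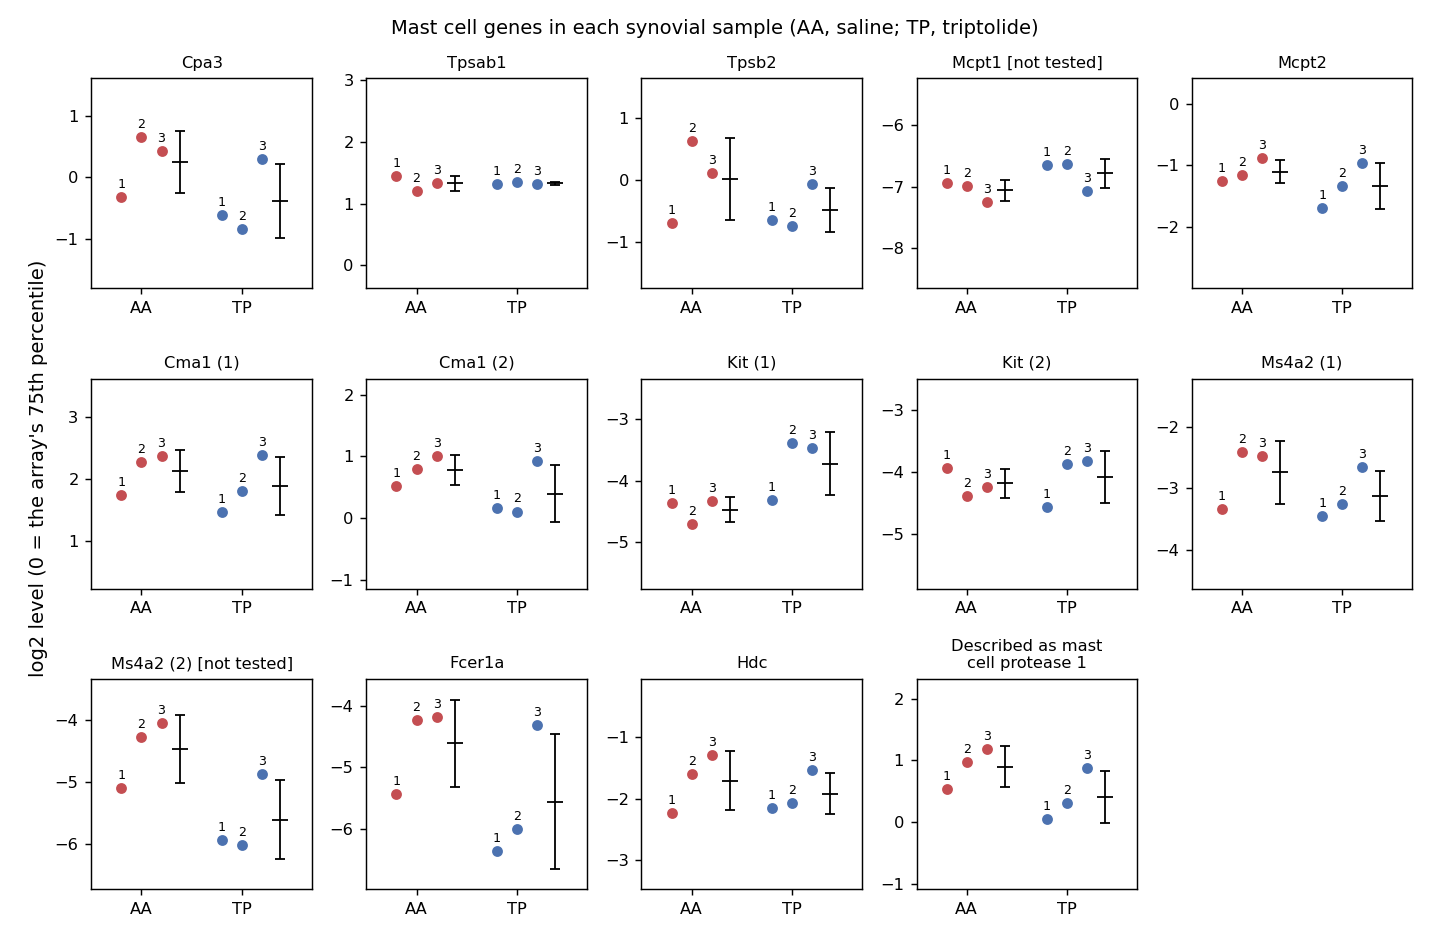
Log2 level of each mast cell probe (y axis, 0 = the array's 75th percentile, the same span in every panel) in arthritis (AA, red) and triptolide (TP, blue) samples, with the replicate number at each point and the mean ± SD (n = 3) as a black bar. In most panels arthritis 2, arthritis 3 and triptolide 3 are high and the other arrays low, whereas Tpsab1 spans 0.24 over the 6 arrays.

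Cpa3 encodes carboxypeptidase A3, a metalloprotease that trims peptides beside chymase in the granule. Its log2 level was -0.32, 0.65 and 0.42 in arthritis 1 to 3 and -0.61, -0.84 and 0.30 in triptolide 1 to 3. Arthritis 2, arthritis 3 and triptolide 3 were high, so the groups overlapped. The log2 difference was -0.63 (SE 0.38, 95% interval -1.56 to 0.30, n = 3 per group, limma unadjusted p = 0.149, adjusted p = 0.994). Leaving out 1 array at a time gave -0.97 to -0.40. The probe lies at chr2:105385518-105385577 on rn4, minus strand, and the exon placement of this and the other probes was not analysed here.

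The tryptases are trypsin-like serine proteases stored as heparin-bound tetramers. The rat genes Tpsab1 and Tpsb2 are also known as Mcpt7 and Mcpt6. Tpsb2 stood at -0.69, 0.64 and 0.12 in arthritis and at -0.64, -0.74 and -0.07 with triptolide. Arthritis 1 was as low as triptolide 1 and 2, and triptolide 3 was the highest of its group. Triptolide minus arthritis gave -0.51 on the log2 scale (SE 0.37, n = 3 per group, limma adjusted p = 0.994), and it was -0.20 without arthritis 2. Tpsab1 showed no such spread, at 1.45, 1.21 and 1.34 in arthritis and 1.31, 1.35 and 1.31 with triptolide. Its log2 difference was -0.0043 (SE 0.14, 95% interval -0.35 to 0.34, n = 3 per group, limma adjusted p = 0.999). Its levels spanned 0.24 over the 6 arrays, and 3.12% of tested probes had a smaller span. The Tpsb2 span was 1.38, and 81.1% of tested probes had a smaller one. The probes of both genes lie on chromosome 10 of rn4, Tpsab1 at chr10:14593749-14593808 on the minus strand and Tpsb2 at chr10:14614707-14614766 on the plus strand.

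The chymases are chymotrypsin-like serine proteases of the granule. Cma1, the chymase also known as Mcpt5, had 2 probes whose starts lie 180 bases apart on chromosome 15, at chr15:34083229-34083288 and chr15:34083409-34083468 (rn4, minus strand). The brighter stood at 1.74, 2.28 and 2.37 in arthritis and 1.46, 1.81 and 2.38 with triptolide. Triptolide 3 was level with arthritis 3, and arthritis 1 lay below triptolide 2. The groups differed by -0.24 on the log2 scale (SE 0.30, n = 3 per group, limma adjusted p = 0.994), by -0.033 without triptolide 1 and by -0.49 without triptolide 3. The other probe stood at 0.52, 0.80 and 1.01 against 0.16, 0.11 and 0.93, a difference of -0.38 (SE 0.27, n = 3 per group, limma adjusted p = 0.994), with triptolide 3 again in the upper range of arthritis. With normexp background correction the difference of this other probe was -0.087.

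Mcpt2 is known in rats as the chymase of mucosal mast cells. The transcript that the array names Mcpt2 carries the symbol Mcpt1 in the current RefSeq table, with synonyms of both rat mast cell proteases, and the array's Mcpt1 transcript is now Vch. Mcpt2 stood at -1.25, -1.16 and -0.88 in arthritis and -1.69, -1.34 and -0.96 with triptolide. Triptolide 1 was the lowest of all and triptolide 3 lay beside arthritis 3, so the groups overlapped. Mcpt2 differed by -0.23 on the log2 scale (SE 0.23, n = 3 per group, limma adjusted p = 0.994), turning to 0.068 with normexp background correction, and was -0.05 without triptolide 1. The probe named Mcpt1 was not well above background on any of the 6 arrays, with values from -7.26 to -6.64, and was not tested. A further probe, outside the 10 gene names, is described on the array as mast cell protease 1 and was well above background on all 6 arrays. It stood at 0.54, 0.98 and 1.18 in arthritis and 0.05, 0.30 and 0.88 with triptolide. Its log2 difference was -0.49 (SE 0.28, n = 3 per group, limma unadjusted p = 0.129, adjusted p = 0.994), and arthritis 1 and triptolide 3 overlapped.

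The probe sequences of these proteases are shown because the family is named inconsistently and its members resemble each other. Capitals mark the longest stretch, 23 bases, that the Mcpt2 probe shares with the probe described as mast cell protease 1.
Cpa3: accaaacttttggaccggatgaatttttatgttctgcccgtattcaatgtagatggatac
Tpsab1: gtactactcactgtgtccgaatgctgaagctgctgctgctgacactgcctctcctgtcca
Cma1, second probe: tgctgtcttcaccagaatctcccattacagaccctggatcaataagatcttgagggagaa
Mcpt1: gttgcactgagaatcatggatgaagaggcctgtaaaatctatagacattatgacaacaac
Mcpt2: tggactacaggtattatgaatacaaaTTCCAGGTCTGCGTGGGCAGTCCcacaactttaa
Mast cell protease 1 by its description: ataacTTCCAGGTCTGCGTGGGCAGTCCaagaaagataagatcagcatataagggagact
Among 14 probes of the chymase family, laid against each other without gaps over the 55 pairs that include one of these genes, 16 to 32 of the 60 bases matched in the best position. Cross-hybridisation between family members was not tested.

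Hdc encodes histidine decarboxylase, the enzyme that makes histamine from histidine. Its log2 level was -2.23, -1.60 and -1.29 in arthritis and -2.16, -2.06 and -1.53 with triptolide. Arthritis 1 was the lowest of all, and triptolide 3 lay between arthritis 2 and 3. Hdc differed by -0.21 on the log2 scale (SE 0.30, n = 3 per group, limma adjusted p = 0.994), and it was -0.0027 without arthritis 3. With normexp background correction the difference was -0.049. The probe lies at chr3:114119509-114119568 (rn4, minus strand).

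The high-affinity IgE receptor has an alpha chain that binds IgE (Fcer1a), a beta chain that amplifies the signal (Ms4a2) and a gamma chain shared with other Fc receptors (Fcer1g). Fcer1a was dim, at -5.43, -4.23 and -4.18 in arthritis and -6.36, -6.01 and -4.32 with triptolide. It was well above background in 2 arthritis samples and 1 triptolide sample. Triptolide 3 stood beside arthritis 2 and 3, while triptolide 1 and 2 were below every arthritis sample. The log2 difference was -0.95 (SE 0.61, 95% interval -2.43 to 0.54, n = 3 per group, limma unadjusted p = 0.171, adjusted p = 0.994), the largest and least precise among the tested member probes. It was -0.55 without triptolide 1, -1.57 without triptolide 3 and -0.26 with normexp background correction. Ms4a2 stood at -3.33, -2.41 and -2.48 in arthritis and -3.44, -3.26 and -2.66 with triptolide on the probe detected on all arrays. Arthritis 1 was within the range of triptolide, and the log2 difference was -0.38 (SE 0.33, n = 3 per group, limma adjusted p = 0.994), ranging from -0.68 without arthritis 1 to -0.22 without arthritis 2. The second Ms4a2 probe stood at -5.09, -4.28 and -4.04 in arthritis and -5.94, -6.02 and -4.88 with triptolide. The groups overlapped, with triptolide 3 above arthritis 1. This probe was well above background on 2 arthritis arrays and on none with triptolide, where its mean was lower by a floored fold of 1.96. For the floored fold, each array of the undetected group takes its lowest signal well above background on any probe, or the probe's own if higher. It has no interval and is no lower bound, since some of the signals it uses were not well above background. The signalling gamma chain Fcer1g, which macrophages and neutrophils also carry, differed by 0.20 (SE 0.37, n = 3 per group, limma adjusted p = 0.994). Its 6 levels were 7.15, 6.60 and 7.54 in arthritis and 7.68, 6.64 and 7.57 with triptolide, low in arthritis 2 and triptolide 2. The Fcer1a probe lies at chr13:89434270-89434329 (minus strand) and the Ms4a2 probes at chr1:214018326-214018385 and chr1:214012629-214012688 (plus strand), on rn4.

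**Figure D2:**
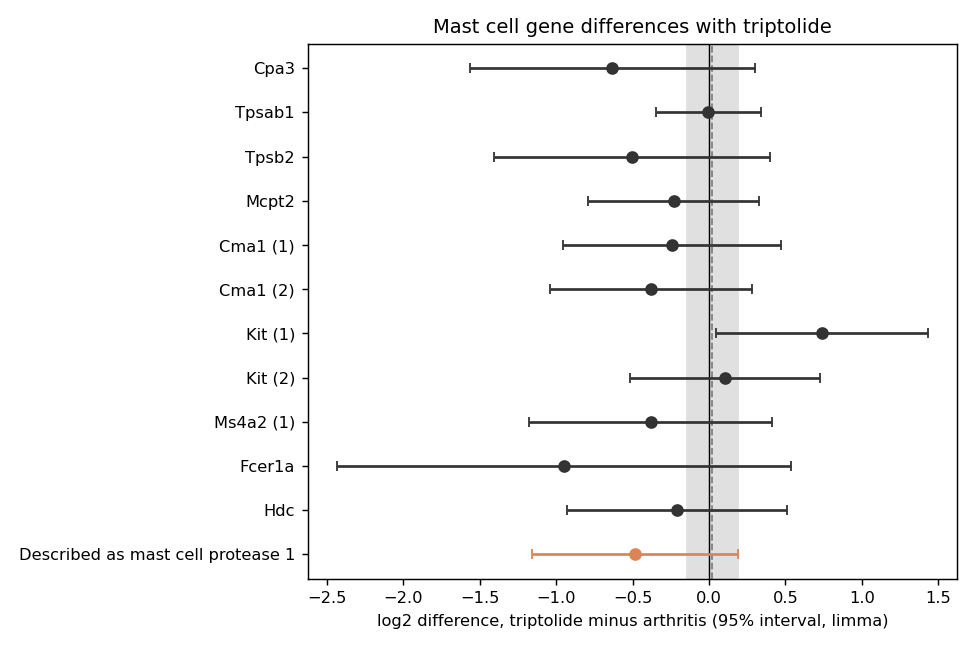
Log2 difference, triptolide minus arthritis (x axis), of each tested mast cell probe with its 95% interval from limma (n = 3 per group), the probe described as mast cell protease 1 in orange. The grey band spans the quartiles of all tested probes, -0.15 to 0.19, and the dashed line their median, 0.023. Among the member probes only the interval of Kit (1), 0.05 to 1.43, lies to one side of 0.

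Kit encodes the receptor for stem cell factor, which melanocytes and some progenitors also carry. Its 2 probes were both dim, each well above background on 2 arthritis arrays, the first on all 3 triptolide arrays and the second on 2. The first, with no position given in the files, stood at -4.36, -4.71 and -4.33 in arthritis and -4.32, -3.39 and -3.48 with triptolide. Triptolide 2 and 3 were high, but triptolide 1 exceeded the highest arthritis sample by a margin far smaller than the spread within either group. The log2 difference was 0.74 (SE 0.29, n = 3 per group, limma unadjusted p = 0.0397, adjusted p = 0.994). Both high arrays lay on slide 2. Within slide 1 the difference was 0.15, and with normexp background correction it was 0.054. The second probe, at chr14:34906341-34906400 (rn4, minus strand), stood at -3.92, -4.39 and -4.23 in arthritis and -4.56, -3.86 and -3.81 with triptolide. The groups overlapped, the difference was 0.10 (SE 0.26, n = 3 per group, limma adjusted p = 0.994), and it was -0.38 within slide 1. Melanocyte genes were set beside Kit. Tyrp1, a pigment enzyme gene, was above background only on the 3 triptolide arrays, with a floored fold of 4.51, on 1 of its 2 probes. Of the other defining pigment genes, Tyr, Dct and Oca2 were not well above background on any array. The mean centred level of the 3 other tested markers, Mlana, Sox10 and Pmel, was 0.19, -0.77 and 0.32 in arthritis and -0.26, 0.52 and 0.0088 with triptolide, so these overlapped between the groups. The part of these cells in the Kit values was not tested. Kitlg, which encodes stem cell factor, differed by -0.02 (SE 0.24, n = 3 per group, limma adjusted p = 0.999), from 2.63, 2.81 and 2.56 in arthritis to 2.50, 3.12 and 2.32 with triptolide. A second, dimmer Kitlg probe, well above background on 2 arrays per group, differed by 0.56 (SE 0.41), and its groups overlapped.

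The members other than Tpsab1 and Kit shared a split of the 6 samples into high and low that crossed the treatment groups. The order within the split varied: arthritis 2 was highest for Cpa3, arthritis 3 for Hdc and triptolide 3 for the brighter Cma1 probe. For these 7 genes, arthritis 2, arthritis 3 and triptolide 3 were each above the other 3 arrays on 8 of the 11 tested member probes. These are all the tested probes of Cpa3, Tpsb2, Mcpt2, Cma1, Ms4a2, Fcer1a and Hdc. The untested second Ms4a2 probe and the probe described as mast cell protease 1 had the same 3 arrays highest. The mean centred level of the 7 genes was -0.31, 0.50 and 0.49 in arthritis 1 to 3 and -0.59, -0.44 and 0.35 in triptolide 1 to 3. The group means were 0.23 ± 0.46 (SD, n = 3) and -0.23 ± 0.51 (SD, n = 3), so they differed by less than the spread within either group. As a description over 6 arrays, the 21 pairs of these genes had Pearson correlations of 0.59 to 0.96, with a median of 0.90, and 19 pairs were above 0.8. Over the 4 arrays of slide 1 the lowest was 0.60 and the median 0.92. Spearman rank correlations over the 6 arrays were looser, from 0.54 for Tpsb2 with Cma1 to 0.94 for Cpa3 with Tpsb2. The genes in each pair share their arrays and scaling, and the 7 genes were set apart after their values were seen.

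Each gene was also set against the mean of the other tested members over the 6 arrays. The correlation was 0.99 for Cma1, 0.96 for Ms4a2, 0.96 for Fcer1a, 0.93 for Hdc, 0.89 for Mcpt2, 0.88 for Cpa3 and 0.81 for Tpsb2. It was -0.22 for Kit and -0.51 for Tpsab1, the latter over a span of levels that was narrow on every array. For the probe described as mast cell protease 1, the correlation was 0.98 with Fcer1a, 0.95 with the second Cma1 probe and 0.93 with Mcpt2.

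**Figure D3:**
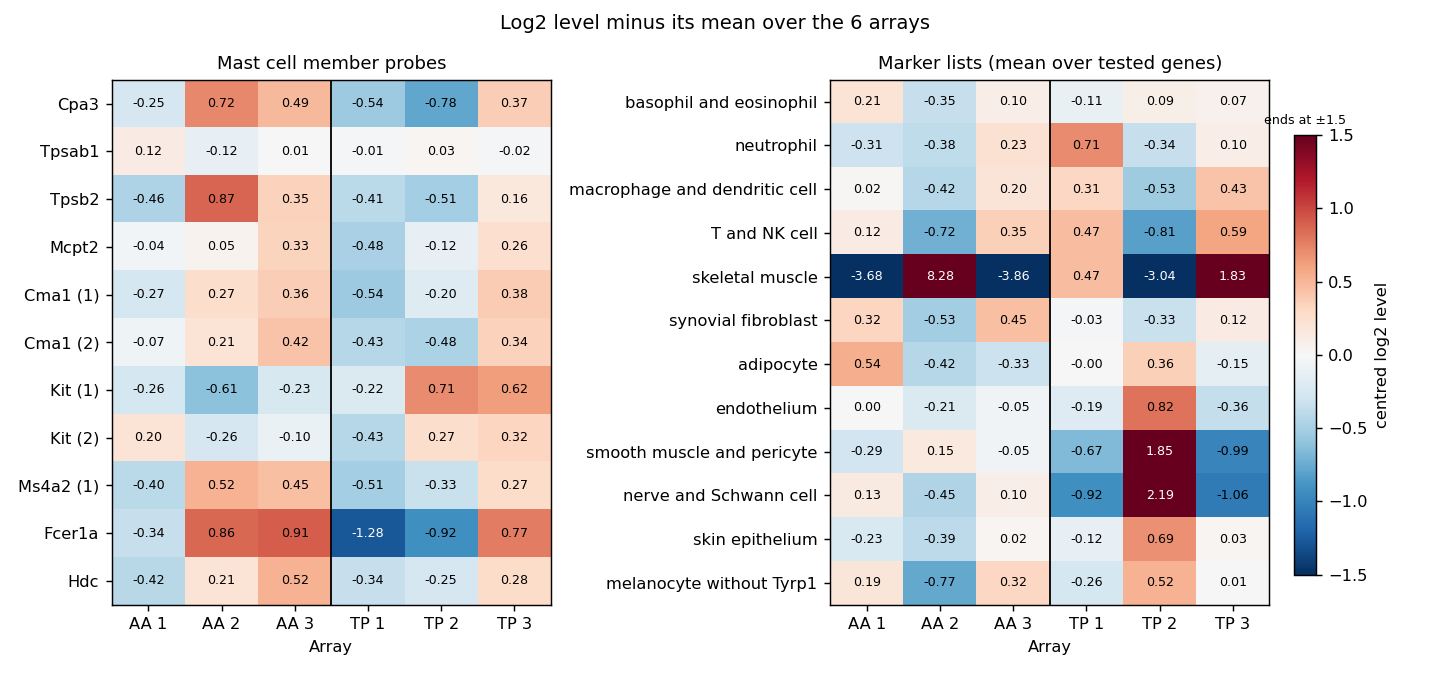
Log2 level minus its mean over the 6 arrays (colour and printed value) for each tested mast cell probe (left) and for the mean of each marker list (right), with arrays in columns and a line between arthritis (AA) and triptolide (TP). Arthritis 2, arthritis 3 and triptolide 3 are red for the proteases other than Tpsab1, for the IgE receptor chains and for Hdc, and no marker list shows that same set of high arrays.

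Markers of other cells were placed beside this pattern. The mean over the 9 tested member genes correlated over the 6 arrays at 0.38 with skeletal muscle markers, at 0.10 with macrophage and dendritic cell markers and at -0.74 with adipocyte markers. Adipocyte markers stood at 0.54, -0.42 and -0.33 in arthritis and -1.3e-04, 0.36 and -0.15 with triptolide, so that they were low where the mast cell genes were high. All 9 tested adipocyte markers had higher values with triptolide, with a median log2 difference of 0.094, and 0 passed the test. That median was -0.059 without arthritis 2, -0.013 without arthritis 3, -0.072 without triptolide 2 and 0.42 without arthritis 1. Their part in the mast cell values was not tested. Basophils and eosinophils, which also carry IgE receptor or histamine genes, had 4 tested markers with a median difference of 0.036, which was -0.13 without arthritis 2 and 0.15 without arthritis 1. Of their genes, Epx, Ccr3 and Prg3 were not well above background on any array. The basophil protease gene Mcpt8 was well above background on 2 arthritis arrays and 1 triptolide array, and differed by -0.01 (SE 0.44).

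The genes most like the members were searched for among 15688 tested probes of other named genes, by Pearson correlation with the mean of the members over the 6 arrays. Of these probes 28, or 0.178%, exceeded 0.9. The highest were Helq, a DNA helicase gene (0.997), Impdh2, of guanine nucleotide synthesis (0.976), and Nkiras1, an inhibitor of NF-kB signalling (0.970). Hagh, Mtg2, Twist2, Cnnm3 and Psenen followed, at 0.959 to 0.947. These probes were found by searching over 6 arrays, and no p is given. Twist2, a repressor of the basic helix-loop-helix class, stood at -3.72, -3.13 and -2.98 in arthritis and -3.85, -3.66 and -3.32 with triptolide, again with arthritis 2, arthritis 3 and triptolide 3 highest.

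The promoters of the 10 genes, as the 250 bases before the start, were searched for the letters AGATAA and TGATAA on either strand. These letters are among the sites of GATA factors, and other forms of the site were not searched. RefSeq sequences on GRCr8 were found for 9 of the 10 genes, and 5 of the 9 windows held at least 1 match. Ms4a2, which varied with the others, had no sequence in the table. The same search found a match in 16.9% of 33469 windows of that length. Cpa3, Cma1 and Fcer1a are printed because they varied together and hold 1 match each, in capitals, and Tpsab1 because it varied apart from them and holds none.
Cpa3, chr2:104673238-104673487, minus strand: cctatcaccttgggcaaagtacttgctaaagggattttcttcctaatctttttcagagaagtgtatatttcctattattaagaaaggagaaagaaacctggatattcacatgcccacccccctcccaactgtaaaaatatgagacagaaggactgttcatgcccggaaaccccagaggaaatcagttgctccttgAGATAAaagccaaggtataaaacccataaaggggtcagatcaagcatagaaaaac
Cma1, chr15:33390134-33390383, minus strand: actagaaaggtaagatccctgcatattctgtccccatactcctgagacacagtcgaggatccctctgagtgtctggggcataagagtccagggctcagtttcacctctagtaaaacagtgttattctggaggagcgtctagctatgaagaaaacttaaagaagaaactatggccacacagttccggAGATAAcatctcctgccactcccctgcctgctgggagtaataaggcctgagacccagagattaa
Fcer1a, chr13:88224680-88224929, minus strand: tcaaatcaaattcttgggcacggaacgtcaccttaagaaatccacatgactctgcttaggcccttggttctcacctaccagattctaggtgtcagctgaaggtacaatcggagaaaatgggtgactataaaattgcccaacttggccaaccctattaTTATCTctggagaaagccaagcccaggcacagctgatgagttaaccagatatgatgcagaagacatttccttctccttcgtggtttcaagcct
Tpsab1, chr10:14867303-14867552, minus strand: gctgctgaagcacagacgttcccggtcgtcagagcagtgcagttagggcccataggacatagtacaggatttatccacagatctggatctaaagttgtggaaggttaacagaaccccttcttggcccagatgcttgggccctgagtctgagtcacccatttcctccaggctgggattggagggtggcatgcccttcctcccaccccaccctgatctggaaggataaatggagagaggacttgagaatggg
The match lies 55 bases before the start in Cpa3, 64 in Cma1 and 93 in Fcer1a. The window of the array's Mcpt2 holds 1 at 105 bases, and that of the array's Mcpt1, not detected here, also holds matches. None was found in Tpsb2, Kit or Hdc, although Tpsb2 and Hdc varied with the others. A match of letters is not a measured binding site. Of the factors that bind such sites, Gata2, needed for mast cell identity, differed by 0.07 (SE 0.38, n = 3 per group, limma adjusted p = 0.995). It stood at -2.31, -2.34 and -2.30 in arthritis and -2.80, -1.35 and -2.58 with triptolide, high in triptolide 2. Gata1 was not well above background on any array.

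Among other granule genes, 10 of 18 with a probe were tested, 7 higher and 3 lower with triptolide (median log2 difference 0.15), and 0 passed the test. The 7 were Cd63, Vamp8, Ndst2, Srgn, Gzmb, Gzmc and Mcpt1l3, and the 3 were Slc18a2, Mcpt1l2 and Mcpt8. Not all of these genes are particular to mast cells, so the median is not a value for mast cell granules alone. The median was 0.018 without triptolide 1, 0.012 without triptolide 3 and 0.28 without arthritis 3. Slc18a2, the vesicular transporter that loads histamine and other amines into granules, had the smallest unadjusted p. It stood at -0.83, -0.62 and -0.55 in arthritis and -1.10, -1.16 and -0.82 with triptolide. Arthritis 1 and triptolide 3 were nearly level, and the difference was -0.36 (SE 0.17, n = 3 per group, limma unadjusted p = 0.0744, adjusted p = 0.994). Its second probe was well above background on 2 arthritis arrays and no triptolide array. Srgn, the proteoglycan core of granules that many leukocytes also express, differed by 0.37 (SE 0.26, n = 3 per group, limma adjusted p = 0.994). The mast cell protease relative Mcpt1l3, a RefSeq name matched by synonym to a probe that the array calls Mcpt1l4, differed by 0.27 (SE 0.16). Another array probe called Mcpt1l4 is not given here. Mcpt1l2 differed by -0.02 (SE 0.15), and the basophil protease Mcpt8 by -0.01 (SE 0.44). Mcpt4 was not tested, being well above background on 2 arthritis arrays and no triptolide array. It stood at -4.09, -6.81 and -3.66 in arthritis and -6.52, -5.76 and -6.81 with triptolide. Its mean was lower with triptolide by a floored fold of 2.06, but the groups overlapped, arthritis 2 being level with the lowest triptolide sample. Mcpt9 was above background on 1 triptolide array, and Ctsg (cathepsin G) on none.

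**Figure D4:**
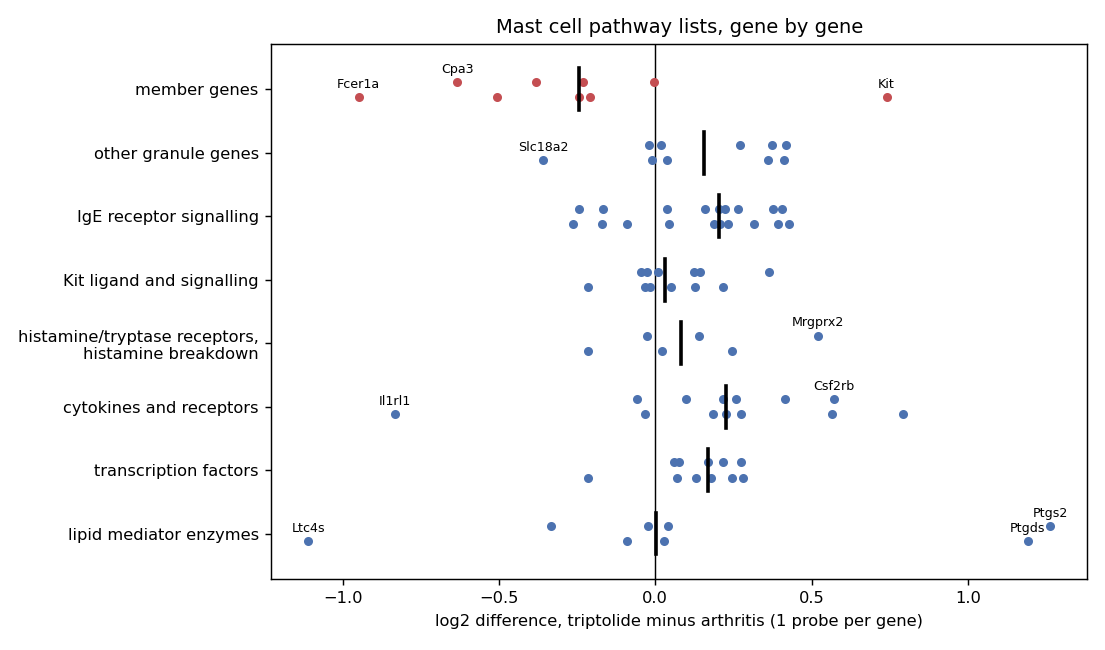
Log2 difference, triptolide minus arthritis (x axis), of each tested gene by its brightest probe, for the mast cell members (red) and 7 lists of related genes (blue), with the median of each list as a black bar. The median is -0.24 for the members and between 0.0013 and 0.23 for the 7 lists.

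Genes that carry the IgE receptor signal were mostly higher with triptolide in value: 14 of 19 tested were above 0 (median 0.20), and 0 passed the test. The median was -0.012 without arthritis 2, 0.078 without triptolide 1 and 0.36 without triptolide 2. The kinase genes Lyn, Syk and Btk differed by 0.38 (SE 0.34), 0.19 (SE 0.23) and 0.22 (SE 0.35), and the adaptor gene Lat by 0.26 (SE 0.50). Lat2 and Plcg2, with the smallest unadjusted p of the list, differed by 0.43 (SE 0.33) and 0.40 (SE 0.32). These genes serve many leukocytes, and 9 of 14 tested macrophage and dendritic cell markers were also higher in value. The list's mean centred level had its lowest values, -0.34 and -0.23, in arthritis 2 and triptolide 2. The macrophage markers had theirs in the same samples, at -0.42 and -0.53, and their part in these values was not tested. Of Kit signalling genes, 7 of 12 tested were higher (median 0.030) and 0 passed. Pik3cd and Stat5a differed by 0.36 (SE 0.22) and 0.22 (SE 0.17), and the median was 0.18 without arthritis 1 and -0.066 without arthritis 2.

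Of receptors for mast cell mediators and histamine-degrading enzymes, 6 of 10 with a probe were tested. The histamine receptor gene Hrh4 differed by -0.03 (SE 0.65) and F2rl1, the receptor that tryptase cleaves, by 0.14 (SE 0.55), both with arrays near background. Mrgprx2, of the receptor family for basic peptides on mast cells, differed by 0.52 (SE 0.34), and Maob, an amine oxidase gene, by 0.25 (SE 0.29). Hrh1 and the histamine-methylating enzyme gene Hnmt were not well above background on any array, and Hrh2 only on 1 triptolide array. Hrh3, named after its values were seen, was above background on 2 triptolide arrays and no arthritis array, and was not tested. It stood at -5.26, -6.05 and -5.46 in arthritis and -3.85, -4.71 and -4.03 with triptolide, higher there by a floored fold of 2.43. Its groups did not overlap, which also held, with triptolide higher, for 4.77% of all tested probes. None of the 6 tested genes passed limma's test.

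Among cytokines and receptors that feed or activate mast cells, 10 of 13 tested were higher (median 0.23, or 0.044 without arthritis 2), and 0 passed the test. Il1rl1, the IL-33 receptor, which mast cells carry at high levels and some lymphocytes also express, was lower in value. It stood at 1.06, 0.42 and 0.61 in arthritis and -0.41, 0.15 and -0.15 with triptolide. Every triptolide sample lay below every arthritis sample, as for 3.87% of all tested probes. The log2 difference was -0.83 (SE 0.24, n = 3 per group, limma unadjusted p = 0.0117, adjusted p = 0.994). It was -1.11 within slide 1 and -0.75 with normexp background correction. A second, dimmer probe, well above background on 2 arrays per group, differed by 0.37 (SE 0.31). Il1rl1 did not share the pattern of the mast cell members, with a correlation of 0.18 with their mean over the 6 arrays. Its ligand gene Il33 differed by 0.26 (SE 0.17, n = 3 per group, limma adjusted p = 0.994), from 3.13, 3.06 and 3.09 in arthritis to 3.18, 3.63 and 3.25 with triptolide. These groups did not overlap, as for 4.77% of all tested probes with triptolide higher. Only triptolide 2 stood clearly apart, and the groups overlapped on a second Il33 probe (0.40, SE 0.21). Csf2rb, the shared receptor chain for IL-3 and related cytokines, differed by 0.57 (SE 0.24, n = 3 per group, limma adjusted p = 0.994). Il4 and Il9 were not well above background on any array, and Il13 was so on 1 arthritis array.

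Of the transcription factors of mast cells, 10 of 11 tested were higher (median 0.17), and 0 passed. Mitf, which drives mast cell and melanocyte genes, differed by 0.25 (SE 0.23) and Tal1 by 0.28 (SE 0.20). The median of this list was 0.30 without arthritis 3 and 0.059 without arthritis 2. Of 8 lipid mediator enzymes 4 were higher and 4 lower, with a median of 0.0013, and between -0.18 without triptolide 3 and 0.21 without triptolide 2. Ltc4s, which makes leukotriene C4, stood at 0.78, 0.11 and 1.18 in arthritis and -0.16, -1.73 and 0.63 with triptolide. Triptolide 2 was lowest and the groups overlapped, with a difference of -1.11 (SE 0.62, n = 3 per group, limma adjusted p = 0.994). Hpgds, the prostaglandin D synthase of mast cells, differed by -0.02 (SE 0.28) and Alox5, of leukotriene synthesis, by -0.09 (SE 0.31). Ptgs2, the inducible cyclooxygenase gene, differed by 1.26 (SE 0.63) and was well above background on 1 arthritis and 2 triptolide arrays.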

How the data were processed

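One-colour Agilent arrays of 3 arthritis and 3 triptolide synovial samples were analysed. Cy3-labelled cRNA was made from 0.5 ug of RNA per sample, per the labels' protocols. The deposited values are linear spot intensity, background-subtracted within each array and not normalized between arrays. They come from Agilent Feature Extraction 10.7.3.1 per the file headers (9.1 per the submitters' processing notes), with positions on rn4. A deposited table of log2 values, by the authors, held 0 member probes and was not used.

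Control and outlier spots were left out, log2 was taken, each array's 75th percentile subtracted and spots of a probe averaged. Probes well above background on at least 3 arrays were tested by limma (version 3.58.1 under R 4.3.3, with lmFit, eBayes and Benjamini-Hochberg over all tested probes). The number of arrays limits precision. The scripts were tested on simulated data.

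The brightest probe stands for a gene. Members and lists were chosen with earlier results of these data known. Named were every member probe, a fixed set of pathway genes, the 2 smallest unadjusted p per mast cell list and the 8 genes most like the members. Hrh3, Tyrp1 and other marker genes, some of the other granule genes, and Ptgds in a plot, were outside this rule, chosen after their values were seen. Symbols came from the RefSeq table (18028 probes by accession, 3169 by symbol, 402 by synonym, and 19413 kept the file's name). Alternatives were other background corrections, scalings, filters, slide, array weights, replicate blocks and leaving out each array.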

Additional observations from a re-analysis of the deposited data

How the results depend on the processing

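Of the values of single member probes under the alternatives, 145 kept their direction and side of the threshold and 17 changed sign. Some of these could not differ by design. The filter settings and the replicate block repeat the differences of the unweighted fit, and the slide block repeats those within slide 1. The counts are therefore no measure of robustness. Array weights turned the most, to 0.13 for Cpa3, 0.15 for Tpsb2, 0.037 for Mcpt2, 0.24 and 0.076 for Cma1, 0.18 for Ms4a2, 0.25 for Fcer1a and 0.21 for Hdc. With them 1 member gene was lower and 8 higher (median 0.18), 1 probe in all was called, and 4343 passed an unadjusted p under 0.05, against 0 and 833 in the unweighted fit. With a slide block the median was -0.66 and the second Kit probe -0.38. Slide 2 holds no arthritis array, so these values equal those within slide 1, where triptolide 1 is the only treated array. They are 1 result and not 2. Normexp gave 0.068 for Mcpt2 and -0.032 for the second Kit probe, with 2 genes higher. With no filter on dim probes 2 member genes were higher and 1756 probes passed the unadjusted threshold. With the filter at all 6 arrays, which leaves Kit and Fcer1a untested, 0 were higher. Leaving out each array gave a median of -0.49 to -0.091, 7 to 8 genes lower and 1 to 2 higher. Tpsab1 then ranged from -0.066 to 0.055, above 0 without arthritis 1 (0.055), triptolide 1 (0.0015) or triptolide 3 (0.0041). The second Kit probe ranged from -0.029 to 0.35, below 0 without triptolide 2 (-0.0048) or triptolide 3 (-0.029). Without triptolide 2, 1655 probes passed the unadjusted threshold. The cause of these changes was not tested. The melanocyte mean without Tyrp1 was added after seeing the data.

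Whether the replicate numbers pair the samples could not be told. Deviations of same-numbered samples correlated at -0.16, -0.13 and 0.001, and those of differently numbered samples at -0.10 to 0.16. With 3 arrays per group, these values can neither show nor exclude a pairing. With the replicate block the members' median was -0.24, 0 probes were called and 1064 passed the unadjusted threshold. The deposited log2 table held 0 member probes, so that alternative was not run. For Il1rl1 and Slc18a2 the settings other than no filter and leaving an array out were added after seeing the data. Over all settings the brightest Il1rl1 probe stayed between -1.11 and -0.65 and the brightest Slc18a2 probe between -0.46 and -0.15. The second Il1rl1 probe, which differed by 0.37 in the unweighted fit, was not followed over the settings. Fcer1a, Kit and the second Ms4a2 probe were near background, where a difference is least precise.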
